A study of Arabidopsis thaliana with 4 samples.

Results

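Beta-glucosidases and beta-galactosidases, enzymes that remove a terminal sugar from small molecules or from wall polymers, were examined in whole Arabidopsis thaliana seedlings kept with or without aluminium. Members were the genes whose symbol is BGLU or BGAL plus a number, or PYK10, and that had a probe set (a group of probes for a transcript) paired with exactly 1 gene. They were 22 of the 13356 genes so paired, namely 21 beta-glucosidases and 1 beta-galactosidase, BGAL16. A reference gene table holds 41 beta-glucosidases and 15 beta-galactosidases under such symbols, and the others were not analysed here. No member had more than 1 probe set, and 1 further probe set, shared by several genes, was left out.

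The aluminium group was 2 pools of 100 seedlings submerged for 16 h in diluted liquid Murashige and Skoog medium with sucrose and 50 µM aluminium. The control group was 2 mock-treated pools of 100 seedlings, also taken at 16 h. Each pool was hybridized to its own Affymetrix ATH1 array, and the labels call the 2 pools of a treatment biological replicates. The titles of the samples set the groups, since the treatment text with aluminium is the same for all 4. All seedlings had been moved from agar plates into liquid, strain and age are not given in the sources used here, and whole seedlings mix root with shoot.

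Plant beta-glucosidases of glycoside hydrolase family 1 cut glucose from stored, inactive glucosides and thereby release defence compounds, hormones or lignin precursors. In Arabidopsis seedlings the best known is PYK10, which fills the ER bodies (spindle-shaped compartments of the endoplasmic reticulum) of roots and acts on indole glucosinolates when tissue is broken. Other members act on coumarin, flavonol and monolignol glucosides or on the glucose ester of abscisic acid. Beta-galactosidases of family 35 remove galactose from xyloglucan, pectin and arabinogalactan proteins of the cell wall.

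Values are deposited intensities on a linear scale, and differences are aluminium minus control on the scale log2(intensity + 16), which understates changes of dim probe sets. The array controls were unequal. Hybridization controls, 18 probe sets for sequences added to every array, had a geometric mean of 131442 on aluminium replicate 1 and 11226 on aluminium replicate 2, against 51057 and 6339 on control replicates 1 and 2. Aluminium replicate 1 also had the highest 3′ to 5′ ratios, a sign of shortened transcripts, for GAPDH (3.52, other arrays 1.44 to 1.71), actin (6.01, others 1.94 to 3.07) and ubiquitin (4.29, others 2.21 to 3.29). Across probe sets, which are not independent, its r with the other arrays was 0.528 to 0.581, while aluminium replicate 2 had an r of 0.770 with control replicate 2. The background limit of an array was the 95th percentile of its 27 bacterial probe sets, a strict one of 422 to 586, and values over it are called above background. The markers fixed for green tissue had 3 of 6 members measured, all above this limit on both control arrays, while 1 of 7 root markers was measured, EXPA7 of root hairs, and stayed under it on all 4 arrays. None of the 4 seed markers was measured, so that seed remains were not assessed.

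With aluminium, 5 of 21 beta-glucosidases were higher on both arrays than on either control: BGLU25, BGLU27, BGLU28, BGLU42 and BGLU47. Both aluminium arrays lay below both controls for 2 of 21, BGLU24 and BGLU40, and the groups of the other 14 overlapped. Over all 22746 plant probe sets, the same rule held for 16.5% in the higher and 16.2% in the lower direction, which the 23.8% and 9.52% of beta-glucosidases are to be read against. In 3 of the 5 higher genes (BGLU25, BGLU27, BGLU28) and in BGLU40 of the lower ones, the difference between treatments also exceeded the gap between the 2 arrays of each treatment. That stricter rule held for 9.83% of all probe sets in the higher and 9.34% in the lower direction. The choice of these genes rests on the same 4 arrays, so their direction is a description.

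No member passed limma over all probe sets at an adjusted p of 0.05, a test that called 0% of them (0 of 22746). The smallest adjusted p of a member was 0.966, as over all probe sets. At an unadjusted p under 0.05 there were 0 members and 1084 probe sets in all. An exact permutation test of 2 arrays against 2 cannot give a p below 0.333, and the 95% interval of a typical probe set extended 1.98 log2 units either way, or 3.94-fold. Changes of the size described here could therefore not be told from the spread between arrays. In whole-seedling RNA, fewer cells of a type and less RNA per cell cannot be told apart.

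The median difference of the 21 beta-glucosidases was −0.31, against 0.0064 over all plant probe sets, with 8 means higher and 13 lower. Leaving out any 1 array moved that median to between −0.014 and 0.028. With all arrays kept it was −0.18 over the 17 members left without the dimmest 25% of probe sets, and 0.048 over the 12 left without the dimmest 50%, so it also rests on dim members. Without aluminium replicate 1, the array with the brightest hybridization controls, 9 beta-glucosidases lay above both controls and 7 below both, where 31.2% and 33.2% of all probe sets did.

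**Figure D1:**
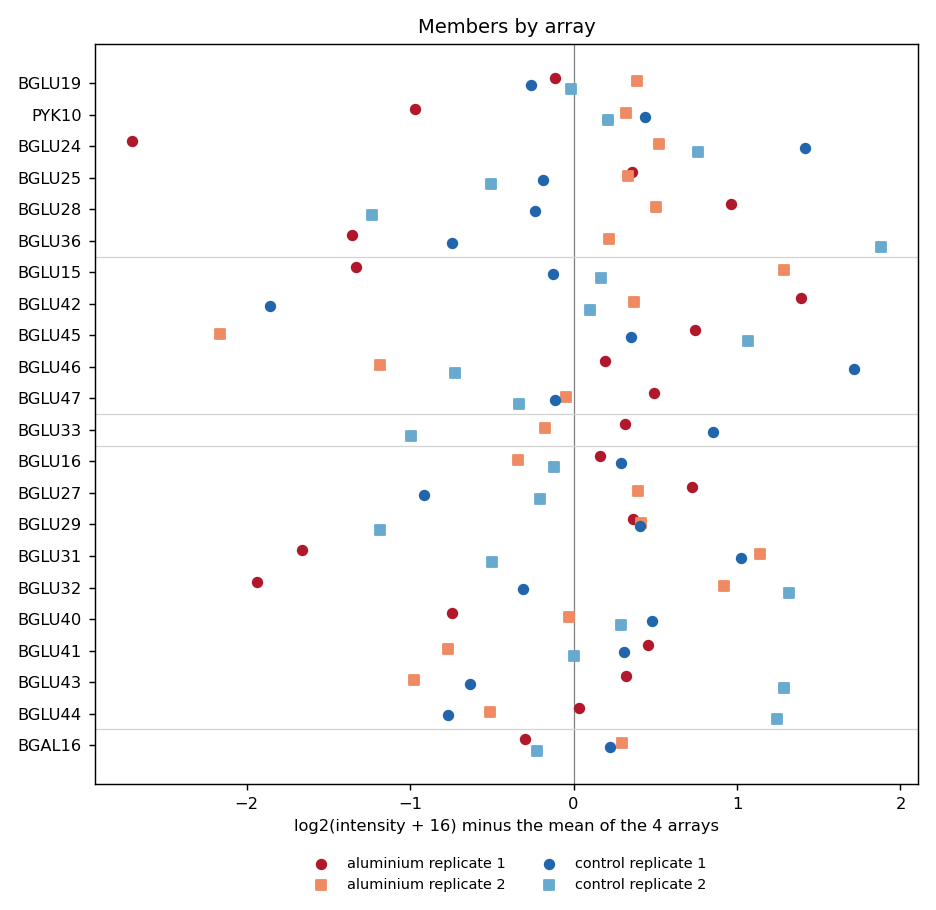
Each row is a member, in blocks by role (glucosinolates and ER bodies, phenolic glucosides, abscisic acid, no role named, and the beta-galactosidase BGAL16), and each point is 1 array. The x axis is log2(intensity + 16) minus the mean of the 4 arrays for that member, and BGLU25, BGLU27, BGLU28, BGLU42 and BGLU47 have both aluminium arrays to the right of both controls, while BGLU24 and BGLU40 have both to the left.

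Among the members tied to glucosinolates and ER bodies, PYK10 read 389 and 976 on the aluminium arrays, against 1056 and 901 on the controls. Only aluminium replicate 1 was low, and the groups overlapped. The difference of PYK10 was −0.65, with a 95% interval from −2.52 to 1.23. It was −0.00022 without aluminium replicate 1 and −1.29 without aluminium replicate 2. BGLU24, of the same branch of the family, read 24.5 and 362 with aluminium against 686 and 430 in the controls. Both aluminium values of BGLU24 were lower than either control, but far apart from each other. Its difference was −2.18 (95% interval −5.05 to 0.69), and −0.57 without aluminium replicate 1. Of the controls 1 of 2 was above background and of the aluminium arrays neither, so no bound on the fold is given for BGLU24. Where both arrays of a treatment and neither of the other were above background, a bound is given. For it, the mean of the brighter treatment was set against the background limit of each array of the other treatment. Such a bound describes these arrays and leaves out the spread between them.

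BGLU25, a further relative of PYK10, stood the other way, with 1094 and 1074 on the aluminium arrays and 745 and 595 on the controls. All 4 values of BGLU25 were above background, and the aluminium pair was closely alike. Its log2 mean was 10.10 ± 0.02 with aluminium and 9.41 ± 0.22 in the controls (SD, n = 2 each). They differed by 0.69, with a 95% interval of −0.95 to 2.33. BGLU19, of the same branch, read 41.3 and 65.1 against 35.9 and 45.4, under the background limit on every array. BGLU36, from the branch of the classical myrosinases (the enzymes of the mustard oil reaction), read 26.5 and 110 with aluminium and 48.8 and 384 in the controls, also always under that limit. For these dim members no fold is given.

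BGLU28, known for its induction by sulphur shortage and for breaking down glucosinolates, read 645 and 466 with aluminium, against 272 and 128 in the controls. Both aluminium arrays lay above background and both controls under it. The log2 mean of BGLU28 was 9.14 ± 0.32 with aluminium and 7.67 ± 0.71 in the controls (SD, n = 2 each). The measured difference was 1.47 (95% interval −0.34 to 3.27, limma adjusted p = 0.966). On these arrays, aluminium was at least 1.21-fold brighter with the background limit in place of the controls, but no minimum fold beyond them is shown. Leaving out 1 array gave a difference for BGLU28 between 0.97 and 1.97.

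Of the companion genes listed for ER bodies and the PYK10 complex, 6 of 15 were measured, and 0 passed limma in either direction. Without overlap, 1 of the 6 was higher (16.7%) and 2 were lower (33.3%) with aluminium, against 16.5% and 16.2% of all probe sets, and the list had a median of −0.29. The 2 lower genes are described although their differences were not the largest of the list, and were chosen after their values had been seen. NAI1, the transcription factor needed for ER bodies and for PYK10 expression, read 105 and 90.9 with aluminium, against 257 and 220.3 in the controls. The arrays of NAI1 agreed closely within each treatment, though all 4 were under background. NAI2, a structural protein of ER bodies, read 388 and 305 with aluminium, against 843 and 512 in the controls. Only the controls of NAI2 were above background, and on these arrays they were at least 1.26-fold brighter with the limit in place of the aluminium values. The measured difference of NAI2 was −0.90 with an interval from −2.62 to 0.82, so no minimum fold beyond these arrays is shown.

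JAL22 and JAL34, jacalin-related lectins of the group that binds PYK10, had the largest measured differences of that list (1.69 and 1.68), but JAL34 was under background on all 4 arrays and JAL22 on 3. JAL34 read 550 and 431 with aluminium, against 49.4 and 361 in the controls, and its difference was 0.41 without control replicate 1. JAL22 read 629 and 151 against 31.3 and 204, with overlapping groups. JAL23 and JAL33 overlapped as well, with differences of −0.40 and −0.17. The groups of PYK10 itself overlapped.

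**Figure D2:**
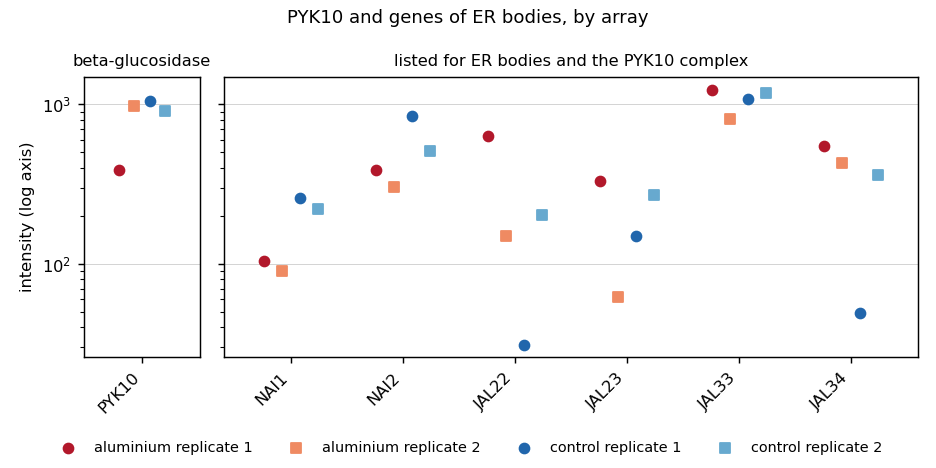
Intensity on a log axis for PYK10 and the 6 measured genes of the ER body list, with 1 point per array and aluminium left of control. NAI1 and NAI2 read lower on both aluminium arrays (105 and 90.9, 388 and 305) than on either control (257 and 220.3, 843 and 512), and PYK10 is low on aluminium replicate 1 only (389).

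Among the members that act on phenolic glucosides, BGLU42 cuts coumarin glucosides such as scopolin in roots. Its values were 1206 and 585 with aluminium, against 112 and 483 in the controls. Both aluminium values of BGLU42 were above both controls, but control replicate 2 came close to aluminium replicate 2. Control replicate 1 of BGLU42 was under the background limit of its array (422) and control replicate 2 just over its own (478), so the size of its difference is uncertain. The log2 mean was 9.74 ± 0.72 with aluminium and 7.98 ± 1.38 in the controls (SD, n = 2 each). They differed by 1.76 (95% interval −0.51 to 4.03, limma adjusted p = 0.966). Leaving out control replicate 1 gave 0.78 for BGLU42, and leaving out control replicate 2 gave 2.74.

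In the coumarin list, which makes the compounds that BGLU42 acts on, 3 of 6 genes were measured and 0 passed limma. S8H, which hydroxylates scopoletin to fraxetin, read 184 and 615 with aluminium, against 1000.2 and 557 in the controls, with overlapping groups, and aluminium replicate 1 was the low array. F6'H1, which catalyses a key step of scopoletin synthesis, read 59.5 and 44.8 with aluminium, against 31.6 and 42.8 in the controls, all far under background. Groups did not overlap for F6'H1, the 1 gene of the list in the higher direction (33.3%, against 16.5% of all probe sets). COSY overlapped with a difference of 0.16.

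BGLU45 and BGLU46 release lignin precursors from their glucosides, and BGLU47 is of the same branch. BGLU47 read 1395 and 956 with aluminium, against 913 and 782 in the controls, all above background. The aluminium values of BGLU47 were the higher ones, but the lower of them nearly met the upper control, and the difference was 0.44 (95% interval −1.23 to 2.12). BGLU45 read 367 and 35.2 with aluminium, against 276 and 463 in the controls. BGLU46 read 120 and 36.3 with aluminium, against 375 and 55.8 in the controls. Both genes were under background throughout, with the lowest value on aluminium replicate 2.

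In the monolignol glucoside list 4 of 7 genes were measured, 0 passed limma and all 4 overlapped. Of all probe sets, 16.5% were higher and 16.2% lower without overlap. CCR2, a reductase on the way to monolignols, had the largest measured difference of that list (−1.82), which turned to 0.92 without control replicate 2, its 1 array above background. That gene read 83.7 and 51.2 with aluminium, against 27.2 and 1928 in the controls. UGT72E1, which adds glucose to the aldehydes of monolignols, read 324 and 36.7 with aluminium, against 29.6 and 69.8 in the controls, all under background and with overlapping groups.

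BGLU15 takes part in the breakdown of flavonol glycosides. Its values were 260 and 1670 with aluminium, against 619 and 759 in the controls. The aluminium arrays of BGLU15 enclosed the controls, so its difference of −0.042 hides a gap of 2.61 between the aluminium arrays on the log2 scale. The flavonol glycoside list had 4 of 6 genes measured, 0 past limma and 0 without overlap, against 16.5% and 16.2% of all probe sets. Its largest differences were those of the flavonol glycosyltransferases UGT78D1 (1.40, and −0.35 without aluminium replicate 1, its 1 array above background) and UGT78D2 (0.27).

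BGLU33 frees abscisic acid, the hormone of water stress, from its glucose ester in the vacuole. Its values were 433 and 304 with aluminium, against 638 and 166 in the controls, so the controls enclosed the aluminium values. The difference of BGLU33 was 0.14, with an interval from −1.99 to 2.27. On the opposite side of that cycle are UGT71C5 and UGT71B6, which attach the glucose and were the 2 of 5 listed genes measured. UGT71C5 read 129 and 123 with aluminium, against 69.7 and 74.1 in the controls. UGT71B6 read 57.0 and 36.6 with aluminium, against 31.3 and 26.7 in the controls. Both were under background on all 4 arrays and higher on both aluminium arrays than on either control, where 16.5% of all probe sets were. The differences were 0.69 (95% interval −0.94 to 2.32) for UGT71C5 and 0.46 (−1.20 to 2.13) for UGT71B6. Neither gene passed limma.

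The other beta-glucosidases are given without a role. BGLU27 read 1884 and 1496 with aluminium, against 593 and 980 in the controls, all above background. Both aluminium values of BGLU27 exceeded both controls, with a log2 mean of 10.73 ± 0.23 against 9.61 ± 0.50 in the controls (SD, n = 2 each). The BGLU27 difference was 1.12, or 2.18-fold for intensity + 16, with an interval from −0.60 to 2.84 and a limma adjusted p of 0.966. It stayed between 0.77 and 1.48 when 1 array was left out. BGLU40 read 767 and 1269 with aluminium, against 1811 and 1583 in the controls, all above background. It was the 1 member above background on every array that was lower without overlap. The difference of BGLU40 was −0.77 (interval −2.48 to 0.94), and −0.41 without aluminium replicate 1.

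Green tissue markers were lower with aluminium too, and their part in the result was not tested. BGLU24 and BGLU40 were picked as lower on the same arrays, where 5 beta-glucosidases were higher, and a link to the markers was not tested. RCA, Rubisco activase, read 2491 and 3421 with aluminium against 12687 and 9585 in the controls. All 3 measured green tissue markers were lower without overlap, against 16.2% of all plant probe sets. Their differences ran from −2.93 to −1.49, and 0 of the 3 passed limma (smallest adjusted p of 0.966). All 3 were lowest on aluminium replicate 1, as were 28.8% of all plant probe sets. Without that array the differences were −1.28 for LHCB4.1, −1.68 for RCA and −0.99 for PRK. The root marker EXPA7 overlapped, with 183 and 98.3 against 373 and 93.8.

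BGLU16 read 1401 and 985 with aluminium, against 1534 and 1151 in the controls, a difference of −0.18 with overlapping groups. BGLU41 read 1004 and 420.4 with aluminium, against 905 and 727 in the controls. Only aluminium replicate 2 was low for BGLU41. BGLU44 read 308 and 206 with aluminium, against 170 and 732 in the controls, of which only the last was above background. BGLU29, BGLU31, BGLU32 and BGLU43 were under background on every array, and their groups overlapped. In BGLU31 and BGLU32, as in BGLU24 and BGLU36, aluminium replicate 1 was the lowest array, with 31.3 and 31.7 against 314 and 330 on aluminium replicate 2. It was the lowest array for 7 of the 21 beta-glucosidases (33.3%) and for 28.8% of all plant probe sets.

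**Figure D3:**
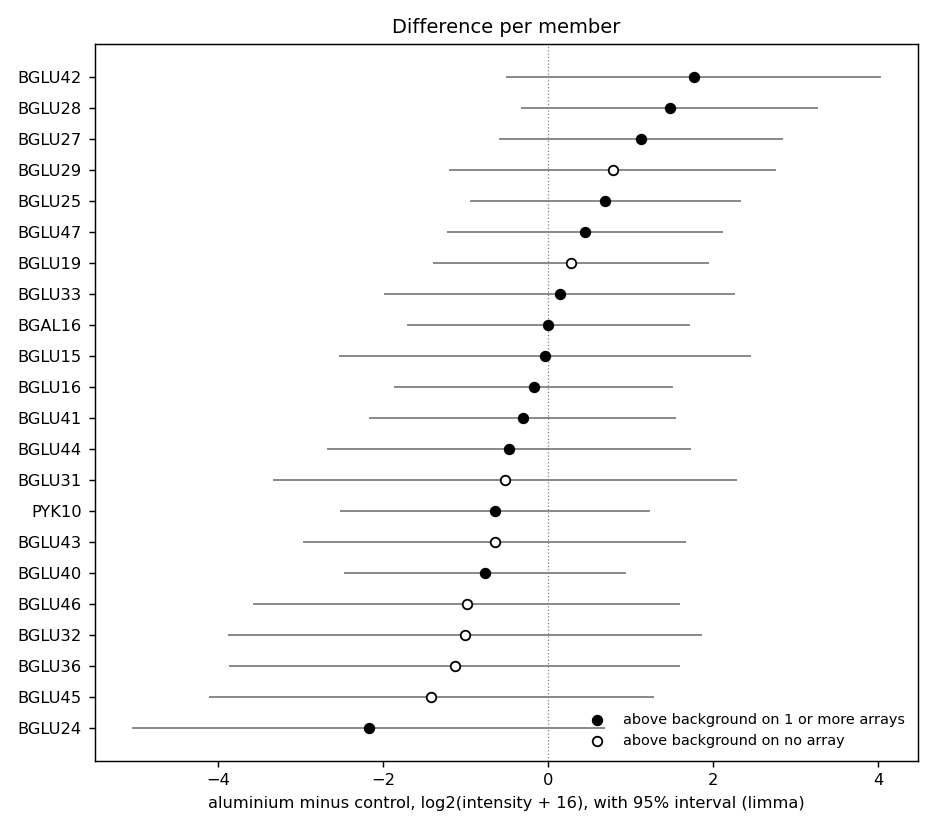
Difference between aluminium and control per member on the log2(intensity + 16) scale, with the 95% interval of limma, sorted by measured value from BGLU42 (1.76) to BGLU24 (−2.18). Filled points were above background on at least 1 array, open points on none, and every interval includes 0.

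Many beta-glucosidase genes lie side by side in the genome, and 11 of the 21 fell into 5 groups of direct neighbours in assembly TAIR10.1, with no other coding gene between them. On chromosome 3, BGLU27 (AT3G60120) was higher on both aluminium arrays by a difference of 1.12, while the groups of its neighbour BGLU16 (AT3G60130) overlapped at −0.18. On chromosome 2, BGLU28 (AT2G44460) at 1.47 lies between BGLU15 (AT2G44450) at −0.042 and BGLU29 (AT2G44470) at 0.78. BGLU29 read 239 and 247 with aluminium, against 245 and 71.0 in the controls, and control replicate 2 was the lowest array for BGLU28 too. The difference between neighbours was not tested.

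The remaining 3 pairs had overlapping groups in both genes. BGLU31 (AT5G24540) and BGLU32 (AT5G24550) on chromosome 5 were both lowest on aluminium replicate 1, as were 28.8% of all probe sets. Their controls went opposite ways, with 288 and 90.1 for BGLU31 and 131 and 439 for BGLU32. BGLU45 (AT1G61810) and BGLU46 (AT1G61820) on chromosome 1 were both lowest on aluminium replicate 2, as were 23.3% of all probe sets. Here too the controls went opposite ways, with 276 and 463 for BGLU45 and 375 and 55.8 for BGLU46. All these values were under background. BGLU43 (AT3G18070) read 81.7 and 23.9 with aluminium, against 34.5 and 175 in the controls, and like BGLU44 (AT3G18080) was highest on control replicate 2. How far probes of one neighbour also bind the transcript of the other was not tested.

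**Figure D4:**
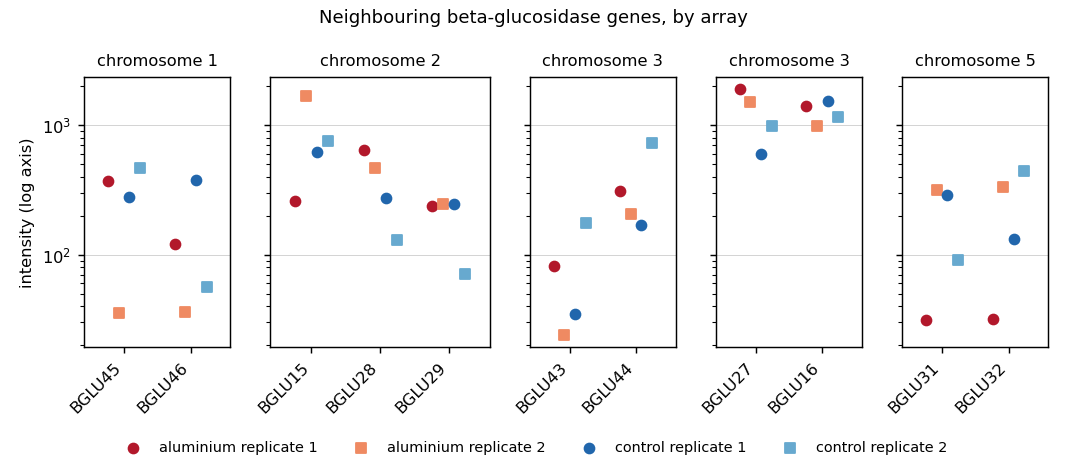
Intensity on a log axis for the 5 groups of neighbouring beta-glucosidase genes, with 1 point per array and aluminium left of control. BGLU27 and BGLU28 have both aluminium points above both controls, as 16.5% of all plant probe sets do, and the other 9 genes shown do not.

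The beta-galactosidases were represented by BGAL16 alone. Its values were 963 and 1465 with aluminium, against 1391 and 1014 in the controls, all above background. The aluminium values enclosed the controls, and the log2 mean was 10.23 ± 0.42 with aluminium and 10.23 ± 0.32 in the controls (SD, n = 2 each). The difference of 0.00036 had a 95% interval from −1.71 to 1.71, so a 3-fold change in either direction was within the error. It was −0.30 without aluminium replicate 2 and 0.30 without aluminium replicate 1. None of the 12 genes listed for wall galactose and xyloglucan side chains, of the 13 for myrosinases and glucosinolate breakdown or of the 6 for sugar starvation was measured in the probe table used here.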

How the data were processed

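Each array had 1 deposited intensity per probe set, on a linear scale. GCOS and RMA are named, without their roles, per the submitters' processing notes. After trimming 2% at either end, the deposited intensities of every array averaged 500.0, so the arrays share a global scale. Of 22810 probe sets, 64 control probe sets were set aside. Genes came from a platform annotation, in which 13513 plant probe sets had 1 gene, 503 several and 8730 none, and all 22 members matched TAIR10.1, used for names and gene order only.

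Deposited intensities were put on the scale log2(intensity + 16) and fitted with limma 3.58.1 in R 4.3.3 (group means, two-sided, Benjamini-Hochberg over 22746 probe sets), after a test on simulated data. The simulated spread between arrays was smaller than the measured one, so that test checked the code and not the power here. Families and lists were described by counts and medians. Every member is named, and of each companion list the 2 genes with the largest difference, with exceptions given in the text. Members and lists were chosen with earlier results of these data known. Alternatives covered normalization, pseudocount, dim probe sets, the spread, a replicate block and each array. Leaving out arrays for counts without overlap was added after seeing the data. Plots used matplotlib 3.10.9 in Python 3.11.15.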

Additional observations from a re-analysis of the deposited data

How the results depend on the processing

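The count of 0 probe sets past limma held under quantile normalization, median centring and pseudocounts of 1 and 64. It also held without the dimmest 25% or 50%, with a spread that follows the mean (smallest adjusted p of 0.300) and at a threshold of 0.1. A fit without 1 array leaves 1 array in a treatment, so only differences are given from it. With the replicate number as a block the count was also 0 (smallest adjusted p of 0.899). The family medians were then −0.31 and 0.00036 again, since a block in this balanced layout cannot change a difference. Deviations of same-numbered arrays had an r of 0.0867 across probe sets. That r does not show that the numbers pair the arrays, and the labels name nothing shared, although both replicate 1 arrays had the brighter hybridization controls. The beta-glucosidase median was 0.048 over the 12 members left without the dimmest 50% and −0.014 to 0.028 with 1 array left out. Counts without overlap were then 6 to 9 of 21 higher and 6 to 7 lower, where 31.1% to 37.8% and 30.9% to 35% of all probe sets were, as fewer arrays can overlap. The sign of BGAL16 changed under quantile normalization (−0.045), as 1 of 163 values of members under settings that kept all arrays. Of these settings, only the normalizations and the pseudocounts could change a sign. The spread that follows the mean, the block and the dim filters leave each difference as it is, so the 163 values overstate stability. With 1 array left out, 18 of 88 values changed sign, in 13 genes. Their ranges were −1.35 to 1.26 for BGLU15, −0.43 to 0.075 for BGLU16, −0.014 to 1.57 for BGLU29, −1.92 to 0.88 for BGLU31, −2.44 to 0.42 for BGLU32, −0.78 to 1.06 for BGLU33, −2.45 to 0.17 for BGLU36, −0.92 to 0.30 for BGLU41, −1.61 to 0.30 for BGLU43, −1.48 to 0.53 for BGLU44, −2.87 to 0.033 for BGLU45, −2.21 to 0.23 for BGLU46 and −0.30 to 0.30 for BGAL16. The cause was not tested. Of the beta-glucosidases, 8 of 21 were above background on no array, which limits what their values show.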
